A study of Mus musculus with 6 samples.

Results

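ATAC-seq peaks that carry no annotated gene and had more signal in Taf4a sKO than in control muscle stem cells (MuSCs) are described here. A peak belonged to this set when the table gave no gene for it, its mean normalized count over the 6 libraries was above 10, and the log2 ratio of the Taf4a sKO mean to the control mean, with 1 added to each, was above 1. That rule was met by 3587 peaks of the 40114 tested peaks without a gene, or 8.94%, in a table of 75412 peaks. Tested means a mean above 10, which 75384 peaks reached, and 5296 of those (7.03%) met the rule for level and ratio with or without a gene. The same rule in the other direction gave 2716 lost peaks without a gene, and 33811 peaks without a gene were neither gained nor lost, here called unaltered. The values that chose the gained peaks were the control and Taf4a sKO levels themselves, so the difference between genotypes at these peaks is a description and carries no test.

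The libraries came from 3 control and 3 Taf4a sKO replicates, with 1 library each. Taf4a sKO mice were Pax7CreERT/Taf4a flox/flox animals on a C57BL/6 background that had received tamoxifen, so that the Cre recombinase expressed from the Pax7 locus could remove exons 11 and 12 of Taf4a in MuSCs. For the study as a whole, controls are described as littermates with both floxed Taf4a alleles, with or without the Pax7 Cre allele. Tamoxifen is not named in that description. The labels call the control libraries WT and do not give the genotype behind each. Mice of both sexes, 8 to 20 weeks old, were used, and the labels do not give the sex behind each library. MuSCs were isolated fresh from muscle, depleted of SCA1+, CD45+ and CD31+ cells and enriched by integrin-alpha7 or a Pax7-ZsGreen reporter. The paper reports that sorted cells were not fully pure when reanalysed, so the libraries can hold other cells too. Control libraries 1, 2 and 3 held 37722015, 35226223 and 42803315 normalized counts in peaks and Taf4a sKO libraries 1, 2 and 3 held 44311913, 41661725 and 41948821.

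In ATAC-seq, the Tn5 transposase inserts sequencing adapters where DNA is not wrapped tightly around nucleosomes, so that read density marks accessible chromatin. Accessible sites away from gene starts are often enhancers, stretches bound by transcription factors that can act on a promoter over a distance, and such sites frequently lie in groups around the gene they act on. TAF4A is a subunit of the general transcription factor TFIID, which assembles at promoters. Quiescent MuSCs reside between the muscle fibre and its basement membrane, and AP-1 factors of the Fos and Jun families are among the factors known to be induced rapidly when these cells are taken out of their niche.

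Sequences of 5 gained peaks are given first, because a short match to the AP-1 motif was more frequent in gained than in the other peaks without a gene. They are the central 300 bases of the peak with the highest Taf4a sKO mean among those with an AP-1 match in each of the 5 densest clusters, on the + strand of GRCm38, with the letters TGANTCA of the AP-1 motif in capitals.
chr8:11273605-11273904, within Col4a1: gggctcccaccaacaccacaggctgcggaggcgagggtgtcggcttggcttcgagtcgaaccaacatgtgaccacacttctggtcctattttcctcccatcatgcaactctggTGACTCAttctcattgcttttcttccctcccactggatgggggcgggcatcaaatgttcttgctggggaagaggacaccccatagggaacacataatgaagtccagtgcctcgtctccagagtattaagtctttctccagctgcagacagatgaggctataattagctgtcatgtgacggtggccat
chr12:103189791-103190090, 12944 bp from the nearest Prima1 start: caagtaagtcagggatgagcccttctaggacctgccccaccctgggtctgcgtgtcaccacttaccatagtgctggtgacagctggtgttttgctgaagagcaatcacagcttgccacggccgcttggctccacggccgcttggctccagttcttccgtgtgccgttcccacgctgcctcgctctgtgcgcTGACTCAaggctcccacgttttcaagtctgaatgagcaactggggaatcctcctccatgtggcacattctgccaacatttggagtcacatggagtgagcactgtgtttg
chr8:122174140-122174439, between Banp and Zfpm1: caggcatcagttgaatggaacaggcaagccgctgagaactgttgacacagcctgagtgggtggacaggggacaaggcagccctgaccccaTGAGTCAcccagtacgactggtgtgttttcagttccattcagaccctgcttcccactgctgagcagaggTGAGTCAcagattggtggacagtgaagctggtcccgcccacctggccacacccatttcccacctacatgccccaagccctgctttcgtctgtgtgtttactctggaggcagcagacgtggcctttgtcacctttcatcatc
chr12:104548730-104549029, between Gsc and Dicer1: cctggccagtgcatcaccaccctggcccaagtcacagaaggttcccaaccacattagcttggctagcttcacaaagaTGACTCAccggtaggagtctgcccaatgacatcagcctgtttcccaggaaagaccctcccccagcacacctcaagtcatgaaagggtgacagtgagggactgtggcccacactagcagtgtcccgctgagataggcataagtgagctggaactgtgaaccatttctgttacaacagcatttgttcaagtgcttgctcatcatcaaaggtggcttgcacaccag
chr10:69849057-69849356, within Ank3: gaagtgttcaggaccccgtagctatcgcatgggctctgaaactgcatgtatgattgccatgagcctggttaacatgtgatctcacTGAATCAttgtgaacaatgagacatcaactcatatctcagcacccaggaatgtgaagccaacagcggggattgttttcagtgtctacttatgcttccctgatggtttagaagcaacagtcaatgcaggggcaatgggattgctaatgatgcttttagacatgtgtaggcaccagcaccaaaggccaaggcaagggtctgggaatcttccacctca
The window between Banp and Zfpm1 held 2 matches and each of the others held 1. Normalized counts at the Col4a1 peak were 176, 191 and 298 in control and 644, 771 and 746 in Taf4a sKO libraries. At the peak near Prima1 they were 169, 225 and 285 in control and 987, 936 and 1018 in Taf4a sKO libraries. In both peaks every Taf4a sKO value was more than 2-fold above every control value, which the rule favours.

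The targeted locus was examined as a check of the labels. The peak over exon 12 of Taf4a, chr2:179922849-179923263, had 65, 78 and 137 normalized counts in control and 44, 22 and 25 in Taf4a sKO libraries, where limma gave a log2 change of -1.58 with a standard error of 0.30 (adjusted p = 0.00034). No Taf4a sKO value reached the lowest control value. Within 5 Mb of Taf4a, 3 of 89 peaks without a gene were gained and 18 were lost, and within 5 Mb of Pax7 22 of 327 were gained and 34 were lost, against 8.94% gained and 6.77% lost over all tested peaks without a gene.

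Promoter peaks of marker genes were read to check the cell type. A promoter peak is the peak with the highest mean within 1 kb of an annotated start of the gene. All 12 MuSC markers had one, and their summed normalized counts were 22992, 19531 and 24310 in control and 22856, 21355 and 21651 in Taf4a sKO libraries. Hey1, a Notch target, was the highest. Over all 16320 promoter peaks 13.4% were higher and 7.34% lower by limma, which is the background for the counts that follow. Vcam1 and Notch3 were higher and Pax7, the transcription factor that defines MuSCs, was lower in Taf4a sKO cells, with Pax7 at 4533, 3128 and 3729 against 3084, 2923 and 3026 (log2 change -0.32, adjusted p = 0.030 from limma). Taf4a sKO mice carry Cre at the Pax7 locus, so this promoter is not a clean readout of the cell type. The part of the Cre allele in its value was not tested. Of 8 haematopoietic markers 7 had no promoter peak, Ptprc among them, and the promoter of Cd68 was lower, at 201, 208 and 307 against 129, 133 and 129. Promoter peaks were found for 5 of 8 endothelial markers, with none at Cdh5, Tie1 or Emcn. Of these 3 were higher and none lower, 1 of the 3 being a gained peak, while Kdr and Erg did not pass. Flt1 and Tek, receptors of VEGF and angiopoietin, were higher in Taf4a sKO libraries. At the start of Pecam1, where the peak is itself one of the gained peaks without a gene, the values were 51, 58 and 71 against 126, 138 and 163. The summed endothelial values were 1846, 1800 and 2367 against 2615, 2640 and 2582, with Tek contributing the most at 1249 and 1626 on average. Dcn and Lum, matrix genes of fibro-adipogenic cells, were higher and Dpt was lower among 6 of 7 measured genes of that list, whose sums overlapped between genotypes, with Pdgfra the highest and no peak at Ly6a (2763, 2572 and 2956 against 3009, 2763 and 2879). Acta2 and Myh11 were higher among 5 of 6 measured pericyte or smooth muscle genes, with none at Rgs5 and Acta2 the highest, and sums of 4184, 4016 and 4497 against 4974, 4607 and 4758. Among 6 genes of activated or committed myoblasts, Myod1 and Mymk, a membrane protein of myoblast fusion, were higher and Myog, the differentiation factor, was lower, with log2 changes of 0.29, 1.49 and -0.86. No myofibre (5 of 6 measured), Schwann cell (1 of 4) or tenocyte (2 of 3) gene passed the test. The part of these other cell types and states in the gained peaks was not tested. In cells in bulk, a higher share of cells with an open site and a site more open in each cell cannot be told apart.

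Sex-linked signal differed as well. The 12 peaks on the Y chromosome summed to 7513, 7032 and 6933 in control and 3649, 3710 and 4755 in Taf4a sKO libraries, while the X chromosome held 1.90% to 1.91% of the control and 1.85% to 1.86% of the Taf4a sKO signal. Gained peaks were spread over all autosomes and X. None of the 9 tested peaks without a gene on Y was gained, and X held 62 of them, or 6.14% of its tested peaks without a gene, the lowest share of any chromosome but Y. The autosomes ranged from 7.60% on chromosome 19 to 10.9% on chromosome 12. Whether the mix of sexes bears on any other peak was not tested.

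Gained peaks started from low signal. Their median normalized count was 60, 63 and 76 in control libraries 1, 2 and 3 and 168, 164 and 170 in the Taf4a sKO libraries. Unaltered peaks without a gene had medians of 140, 139 and 164 in control and 165, 156 and 159 in Taf4a sKO libraries. The gained peaks stood below the unaltered peaks in each control library and at about their level in each Taf4a sKO library, an order that choosing peaks by their ratio favours. Lost peaks had medians of 85, 88 and 96 in control libraries, also below the unaltered ones, and of 31, 29 and 30 in Taf4a sKO libraries. Among the control libraries, library 3 gave the highest median in all 3 classes of peaks. Together the gained peaks took 1.03%, 1.13% and 1.18% of all peak signal in control and 2.38%, 2.41% and 2.48% in Taf4a sKO libraries.

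**Figure D1:**
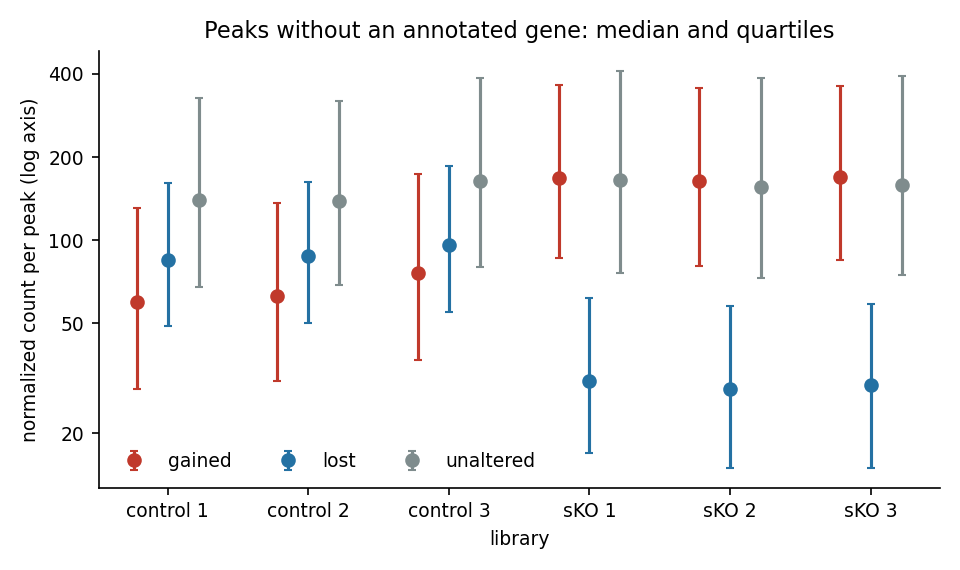
Normalized count per peak (log axis) in each of the 6 libraries for gained, lost and unaltered peaks without an annotated gene; points are medians and bars run from the lower to the upper quartile over peaks. Gained peaks have medians of 60 to 76 in control and 164 to 170 in Taf4a sKO libraries, next to unaltered peaks at 139 to 165.

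Over peaks, the mean of the control libraries had quartiles of 32.7, 66.3 and 149 for the gained set and the mean of the Taf4a sKO libraries 85.8, 168 and 362. A control mean below 20 was found at 425 gained peaks (11.8%), and 2 gained peaks had a control library at 0. At the upper end 301 gained peaks (8.39%) had a control mean of at least 320. Compared with the unaltered median of 149, 2689 gained peaks lay below it in control, and 1860 (51.9%) lay above the unaltered Taf4a sKO median of 160. Gained peaks were shorter, with a median of 442 bp against 528 bp for unaltered and 368 bp for lost peaks. Per kb of peak, the median level of gained peaks was 148 in control and 376 in Taf4a sKO cells, against 290 and 311 for unaltered peaks. The share of tested peaks without a gene that was gained was 54.6% at a control mean below 20, 19.6% from 20 to 40, 10.3% from 40 to 80, 7.72% from 80 to 160, 6.69% from 160 to 320, 4.78% from 320 to 640 and 1.22% from 640 on. A peak with a control mean under 10 passed the filter on the mean only if it was higher in Taf4a sKO cells, so the lowest range is partly set by that filter.

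**Figure D2:**
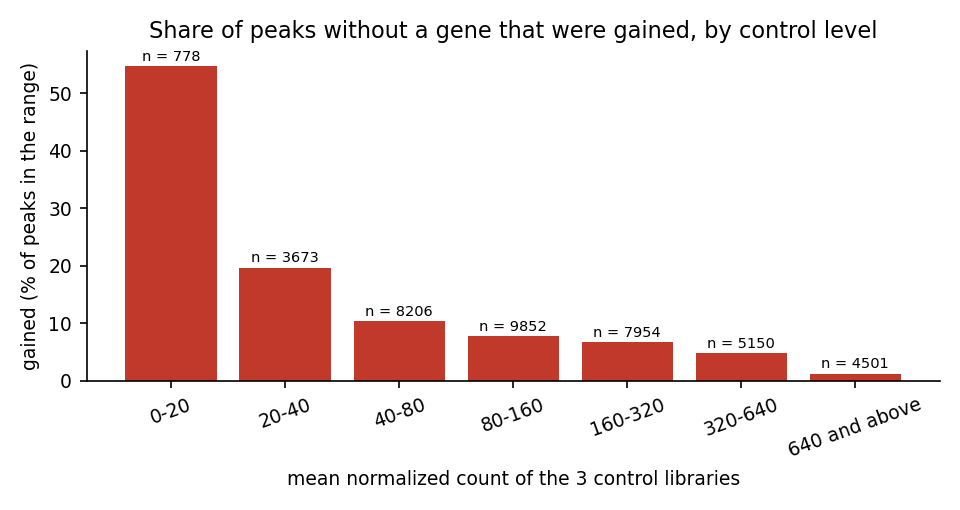
Share of tested peaks without an annotated gene that were gained (bars, %) in 7 ranges of the mean normalized count of the 3 control libraries, with the number of peaks in each range above the bar. The share goes from 54.6% below 20 to 1.22% at 640 and above.

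Most gains were modest. The median log2 ratio was 1.24, 125 gained peaks (3.48%) were above 2, and the highest was 5.61. Every Taf4a sKO value was above every control value at 3526 gained peaks (98.3%), a pattern seen at 32.3% of all 75384 tested peaks and largely fixed by the rule. By limma, 28.0% of all tested peaks were higher and 13.9% were lower in Taf4a sKO cells, and 3545 of the gained peaks were among the higher ones, again a count that the rule sets. The split between gained and lost depended on the threshold and on scaling. At a log2 threshold of 1.5 there were 746 gained and 1193 lost peaks without a gene, so that 38.5% of them were gained. At the threshold of 1 used here, gained peaks made up 56.9% of the gained and lost peaks without a gene, but 44.7% after scaling by the median of ratios to a common reference, 40.9% after scaling to equal totals and 51.3% after quantile normalization. The median log2 ratio of all tested peaks was 0.10 as deposited and -0.01, -0.04 and -0.03 under these scalings. Of the gained peaks 74.1%, 67.6% and 77.7% still met the rule then, with median ratios over all of them of 1.14, 1.10 and 1.19. The calls by limma depended on scaling too, since higher peaks made up 66.8% of the called peaks as deposited but 53.0%, 47.6% and 49.7% under the same scalings.

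Each replicate number was also left out of the choice in turn and read separately. Peaks chosen on replicates 2 and 3 alone (2998 peaks) had a median log2 ratio of 1.40 in the library pair numbered 1, and 99.3% were above 0, against 66.3% of all peaks without a gene. For the pair numbered 2, 3523 chosen peaks had a median of 1.23 with 98.4% above 0, against 62.5% of all. The pair numbered 3 gave the smallest differences, with a median of 0.86 over 4973 chosen peaks and 96.8% above 0, against 49.9% of all peaks without a gene. Leaving out control library 3 raised the number of gained peaks without a gene to 4934, and leaving out each other library gave 3138 to 3828.

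Some peaks show the range. The highest signal in Taf4a sKO MuSCs was at chr9:102649877-102651263, between genes and 22058 bp from the start of Anapc13, a subunit of the anaphase-promoting complex, with 1307, 1183 and 1350 normalized counts in control and 3020, 2928 and 2691 in Taf4a sKO libraries. A peak 85033 bp from the start of Cd47, which encodes a surface protein that inhibits phagocytosis, had 946, 881 and 1133 against 2839, 2793 and 2891 (chr16:49951166-49952567). The third by signal lay 102641 bp from Spred1, an inhibitor of Ras signalling, where control library 3 stood apart with 1742 beside 978 and 1002, against 2782, 2682 and 2495. At the other end, the largest ratio was in an intron of Snd1, chr6:28929204-28929659, with 3, 2 and 4 against 194, 18 and 373. Repeats cover 78.7% of that peak and its Taf4a sKO values differ widely. Another 2 peaks were picked here for their ratio after the values were seen. A small peak 35 bp from a start of Atf7ip, which encodes a partner of the H3K9 methyltransferase SETDB1, had means of 4 and 82.3. In an intron of Fhad1 the values were 13, 23 and 22 against 221, 169 and 261. The lowest control mean was at a peak in Akap6, with 3, 3 and 0 against 32, 53 and 5, where 1 Taf4a sKO library hardly differed from control. Just inside the threshold lay a peak far from genes on chromosome 6 with 1, 2 and 44 against 40, 5 and 52, where the genotypes overlap, and a peak in Plxna4 with 17, 15 and 15 against 40, 29 and 28, and just outside it a peak in Ltbp1 with 17, 18 and 16 against 42, 29 and 34.

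By position, gained peaks resembled the other peaks without a gene. Introns of coding genes held 48.3% of them, against 48.7% of unaltered and 46.5% of lost peaks, and 40.8% were intergenic, against 38.1% and 42.7%. Noncoding genes held 5.55% in introns and exons of any gene 2.34%. The median distance to the nearest start of a coding gene was 35900 bp for gained, 28114 bp for unaltered and 41126 bp for lost peaks. An empty gene entry did not always mean a distant gene. In GENCODE release M21, 594 gained peaks (16.6%) had a start of some transcript within 10 kb and 107 (2.98%) within 1 kb, as at Atf7ip, against 21.3% and 5.30% of unaltered peaks. Base composition was alike, with a median GC content of 48.5% in gained and 48.6% in unaltered peaks, and repeats covered a median of 8.14% of a gained and 8.68% of an unaltered peak.

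Gained peaks lay near each other. Of the tested peaks without a gene that came next to a gained peak on either side, 20.9% were gained and 2.65% were lost. Next to a lost peak 3.50% were gained and 22.9% lost, and next to an unaltered peak 8.11% were gained. Most neighbours of either kind were unaltered, and those that changed were more often of the same direction as the peak they lay beside. The median distance from a gained peak to the nearest other gained peak was 52181 bp, and 1766 gained peaks (49.2%) had another within 50 kb. For the fewer lost peaks that share was 37.2% with a median of 115140 bp.

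The share gained declined with distance. Among peaks without a gene 0 to 1 kb from the nearest other gained peak 38.0% were gained, from 1 to 5 kb 23.6%, from 5 to 10 kb 16.5%, from 20 to 50 kb 10.2% and from 500 to 1000 kb 5.16%. The median log2 ratio fell along the same steps from 0.84 to -0.03. Around lost peaks the order was opposite, with 1.23% gained within 1 kb and 11.2% from 500 to 1000 kb. Around unaltered peaks the share stayed between 7.96% and 10.2% at all distances.

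Peaks that carry a gene can never be chosen by the rule, though they come from the same libraries. Of those peaks, 22.5% were higher and 11.5% lower by limma. Within 10 kb of a gained peak without a gene 304 of 500 were higher, or 60.8%, and 4.60% were lower. From 1 to 5 kb 65.4% were higher with a median log2 change of 0.63, from 5 to 10 kb 58.5% with 0.48, from 20 to 50 kb 35.6% with 0.20 and from 500 to 1000 kb 15.5% with 0.03. Around lost peaks 18.3% of 82 such peaks were higher and 31.7% lower at 1 to 5 kb, and around unaltered peaks 32.4% were higher. Of the peaks with a gene 28.7% were gained themselves at 1 to 5 kb from a gained peak without one, against 4.85% of all. Without control library 3 the share higher within 10 kb was 65.2%, against 34.4% of all peaks with a gene under that choice.

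**Figure D3:**
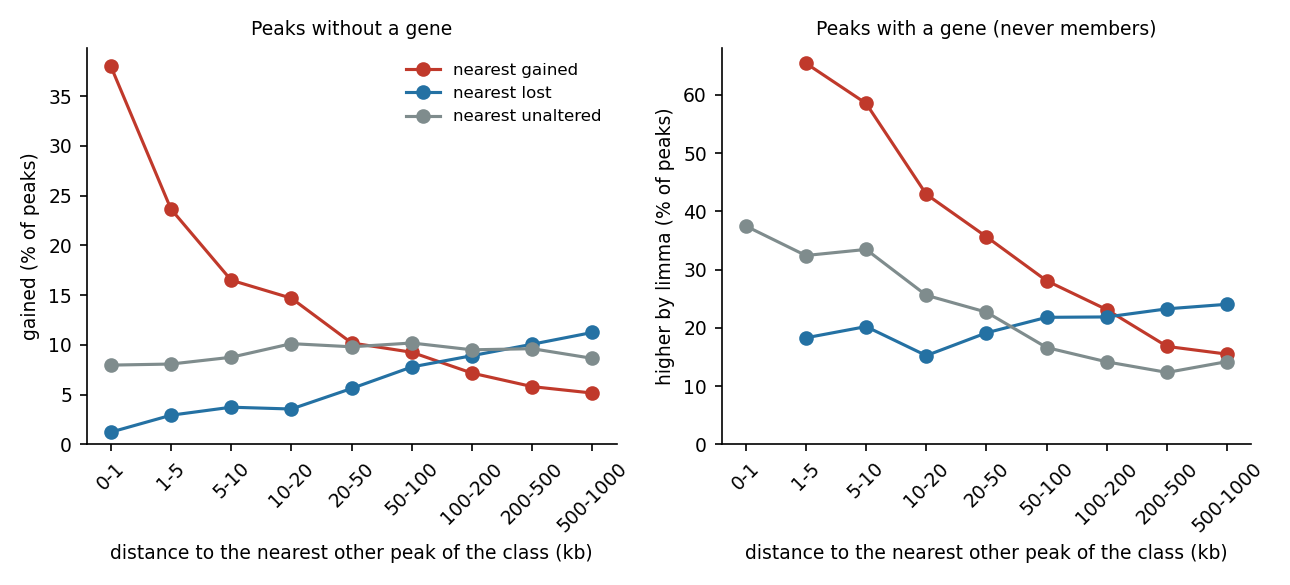
Left, share of tested peaks without a gene that were gained; right, share of peaks with a gene that were higher in Taf4a sKO cells by limma; both against the distance in kb to the nearest other gained, lost or unaltered peak without a gene, leaving out ranges with fewer than 20 peaks. Near gained peaks the shares begin at 38.0% and 65.4% and decline to 5.16% and 15.5%.

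Chains of gained peaks with gaps of at most 50 kb were called clusters. Most were short, with 1821 gained peaks (50.8%) alone, 426 pairs, 148 groups of 3 and 51 of 4. Groups of 5 or more, called dense, numbered 44 and held 266 gained peaks (7.42%) on 17 chromosomes. Chromosome 12 had 6 of them and chromosome 8 had 5. Dense clusters were ranked by their number of gained peaks and then by the shorter span, so densest does not mean most per kb. Inside the dense clusters a median of 70.0% of tested peaks without a gene were gained, from 27.8% to 100%. Each span begins and ends at a gained peak and holds 5 or more. These shares, and those of single clusters below, are thus largely set by that choice. Their spans held 507 tested peaks with or without a gene, 266 of them these gained peaks. Lost peaks without a gene numbered 4 there, 2 of them in a single cluster within Ank3. Over all tested peaks without a gene 6.77% were lost, a share that is not on the same base as the 507. Coding genes overlapped 31 of the clusters. The number of dense clusters varied with the choices made, from 17 to 25 under other scalings of the libraries, and without control library 3 it was 94.

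**Figure D4:**
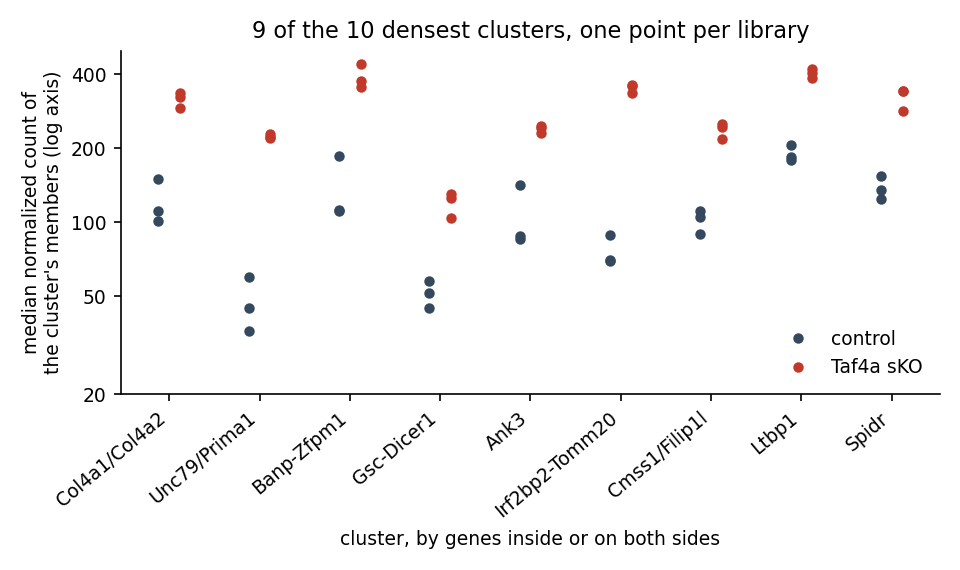
Median normalized count (log axis) of the gained peaks in 9 of the 10 densest clusters, 1 point per library, named by the coding genes they overlap (/) or lie between (-), leaving out the long model Gm20388. In all 9 the 3 Taf4a sKO points lie above the 3 control points, as the choice of peaks requires of their means.

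The densest cluster held 10 gained peaks in 136 kb, chr8:11249525-11385137, within the head-to-head genes Col4a1 and Col4a2, which encode the chains of type IV collagen, the main collagen of basement membranes. The medians of its gained peaks were 102, 111 and 150 in control and 325, 293 and 336 in Taf4a sKO libraries. Its gained peaks ranged from a weak site in Col4a2 with 25, 31 and 23 against 105, 71 and 103 to a strong one in Col4a1 with 379, 454 and 563 against 999, 1077 and 1084. Of the 23 other peaks in the span 12 were higher by limma and none was lower, against 28.0% and 13.9% of all tested peaks. Both genes share 1 promoter peak, which had 1261, 1175 and 1463 against 1517, 1431 and 1412 and did not pass the test, with a log2 change of 0.17 ± 0.11 (standard error) and an adjusted p of 0.23 from limma. The next genes outward were Irs2, an adaptor of the insulin receptor, and Rab20, a small GTPase, 241 and 68.4 kb away, with promoter log2 changes of 0.09 and 0.07 that did not pass either.

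In the second cluster all 9 peaks without a gene were gained, at chr12:103156850-103282280 around Prima1, which encodes the membrane anchor of acetylcholinesterase, and the end of Unc79, which encodes a subunit of the sodium leak channel. Here the ratios were the largest of the 10, with a median of 2.11. Cluster medians were 36, 45 and 60 in control and 222, 229 and 221 in Taf4a sKO libraries. A peak 6485 bp from a Prima1 start had 31, 45 and 62 against 382, 351 and 430, and a peak 98 bp from another annotated Prima1 start had 43, 53 and 60 against 391, 229 and 261. The main promoter peak of Prima1 went from 376 ± 55.0 to 674 ± 40.8 (SD, n = 3 each), and limma put the log2 change at 0.85 ± 0.13 (standard error), with an adjusted p of 2.0e-05. At Unc79, whose start lies outside the cluster, the promoter fell from 139, 115 and 118 to 65, 69 and 68 (log2 change -0.87, adjusted p = 0.00061 from limma). Fam181a, on the far side, had 42.7 ± 3.2 and 42.0 ± 6.2 (SD, n = 3 each), and Cox8c had no promoter peak.

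Clusters 3 to 5 held 8 gained peaks each. Cluster 3, chr8:122167369-122241023, lies between Banp, a nuclear matrix-associated protein, and Zfpm1, a cofactor of GATA factors, inside Gm20388, a gene model of 4435 kb that spans many other genes. All 8 other peaks in its span were higher by limma, with cluster medians of 112, 113 and 186 against 355, 376 and 441. Control library 3 was nearest to the Taf4a sKO values there. Cluster 4, chr12:104548547-104666200, overlaps no coding gene and lies between Gsc, a homeobox factor, and Dicer1, the RNase that matures miRNAs, with medians of 57.5, 51.5 and 45 against 131, 104 and 126. Its 2 weakest peaks reached no more than 36 normalized counts in any library. Cluster 5, chr10:69742630-69860377, lies within Ank3, which encodes the membrane adaptor ankyrin-G, with medians of 85.5, 88 and 143 against 248, 243 and 230. There 2 of the 25 peaks were lost, and of the 17 peaks outside the gained set 4 were higher and 3 were lower by limma. A further dense cluster of 7 gained peaks lies within the same gene, chr10:69516654-69653476.

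Clusters 7 to 10 lay within or between other genes. Cluster 7, chr8:126698938-126873106, lies between Irf2bp2, a transcriptional corepressor, and Tomm20, a receptor of the mitochondrial import complex, and holds a peak with 42, 62 and 80 against 554, 480 and 489 at chr8:126807234-126807764. Of 18 other peaks in that span 15 were higher and 1 was lower by limma. Cluster 8, chr16:57367108-57574208, lies in the overlapping genes Cmss1 and Filip1l, with a peak going from 33, 25 and 37 to 187, 237 and 188. Cluster 9, chr17:75069432-75129009, holds 7 gained peaks in Ltbp1, which encodes a protein that tethers latent TGF-beta to the matrix, with medians of 185, 179 and 207 against 422, 407 and 386. Cluster 10, chr16:15920043-15992901, holds 7 in Spidr, a scaffold in DNA repair by recombination, next to Cebpd, a transcription factor, and has the highest control level of the 10 at a peak with 959, 959 and 1317 against 2291, 2250 and 2092. Over the spans of all 10 clusters there were 109 peaks that the rule had not chosen, and 62 were higher and 6 were lower by limma, against 28.0% and 13.9% of all tested peaks. Some of the 109 carry a gene and met the rule for level and ratio. Such an excess is not particular to these clusters, since 60.8% of peaks with a gene within 10 kb of any gained peak were higher.

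Most genes at these clusters did not pass the test at their own promoters. The 10 clusters overlapped or were flanked by 32 coding genes, 29 of them with a promoter peak and 28 with distinct ones. Of these, 6 were higher (21.4%) and 1 was lower (3.57%) by limma, against 13.4% and 7.34% of all 16320 promoter peaks, with a median log2 change of 0.10 against 0.06. None was gained by the rule. Apart from Prima1 the higher ones were Filip1l, whose product binds filamin A (631, 562 and 652 against 852, 899 and 844), Rasgrp3, an activator of Ras and Rap (582, 540 and 521 against 723, 762 and 823), Ank3 (510, 464 and 467 against 605, 593 and 685), Sntg2, a syntrophin (960, 899 and 1086 against 1235, 1243 and 1237), and Spidr (1296, 1253 and 1506 against 1668, 1683 and 1769). Their log2 changes were 0.49, 0.49, 0.38, 0.34 and 0.34, with adjusted p from limma of 0.0013, 0.0017, 0.014, 0.014 and 0.011. In all 5 every Taf4a sKO value was above every control value. Choosing them by limma favours that pattern, and 32.3% of all tested peaks showed it. The calls at Ank3, Sntg2 and Spidr were lost when 1 library was left out, with adjusted p up to 0.12, 0.058 and 0.073 from limma, and that at Ank3 also under 2 other scalings. Ltbp1 missed the threshold (log2 change 0.24, adjusted p = 0.069 from limma). Promoter changes of Dicer1, Gsc, Zfpm1, Irf2bp2, Tomm20 and Cebpd did not pass, with log2 changes between -0.11 and 0.22. The promoter peaks of Filip1l, Rasgrp3, Ltbp1 and Myt1l carry no gene in the table, so the rule could have chosen them and did not. Without control library 3, 12 of the 28 promoters were higher, and without Taf4a sKO library 3 only 3 were. Lower promoters numbered 5 after scaling to equal totals and 7 after quantile normalization, with 5 and 6 higher ones. Of all 75384 tested peaks 19464 and 18894 were lower under these scalings, against 10476 as deposited.

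Of the other dense clusters, a few are named here that were chosen after their values were seen and do not stand for the rest. In Adam12, which encodes a disintegrin metalloprotease known from fusing myoblasts, lie 2 clusters, chr7:133900189-134028900 and chr7:134088575-134193436. Smad3 and Tgfb2, a mediator and a ligand of TGF-beta signalling, each hold 1, at chr9:63674678-63744125 and chr1:186572188-186665720, and Adamts2, the procollagen peptidase, holds 1 at chr11:50622093-50700710. Cd47, Tns3, Bin1 and Slc9a9 are each overlapped by 1. Apart from genes, clusters lie 317 kb from Runx1 (chr16:93143129-93193000), where all 5 peaks were gained, 99.1 kb from Foxo1 (chr3:52452304-52537824) and 35.5 kb from Il33 (chr19:29838979-29889579). At chr10:68587543-68706102, 17.5 kb from Tmem26, all 5 peaks were gained with medians of 26, 15 and 28 against 115, 95 and 124.

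Counted by gene body, 1128 coding genes held a gained peak, 397 of them 2 or more and 51 of them 5 or more. Gm20388 held 29 and Fgfr2 held 14, but both are very long models in this annotation (4435 and 2961 kb) that run over other genes. Among the others reported here, Ank3 held 15 of 58 tested peaks without a gene, Adam12 11 of 19, Npas3 10 of 27, Ltbp1 10 of 34, Rbms3 10 of 57, Rgs6 9 of 14 and Slc9a9 8 of 17. In Adam12 the medians were 29, 35 and 33 against 144, 106 and 141, and no peak without a gene was lost. Its promoter went from 964, 1023 and 1144 to 1807, 1798 and 1946, and limma put the log2 change at 0.83 ± 0.11 (standard error), with an adjusted p of 1.5e-06. Promoters of Rbms3, an RNA-binding protein, Slc9a9, an endosomal sodium/proton exchanger, and Npas3, a bHLH-PAS factor, were higher too, with log2 changes of 0.69, 0.48 and 0.37 (adjusted p = 3.4e-05, 0.0014 and 0.0067 from limma), though Npas3 lost its call without Taf4a sKO library 3 (adjusted p = 0.064). Those of Fgfr2 and Gm20388 did not pass, with log2 changes of 0.06 and 0.17 (adjusted p = 0.64 and 0.21 from limma), and of all promoter peaks 13.4% were higher. In Rgs6, a regulator of G protein signalling, the peak at an annotated start is itself one of the gained peaks, with 129, 147 and 181 against 391, 315 and 297, and is given as a description.

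Gene families were counted by the nearest start of a coding gene, against 8.94% gained among all tested peaks without a gene. The share was 19.6% (20 of 102) at Runx and Tead factors, 14 of them near Runx1, which had 49 tested peaks. It was 17.1% (35 of 205) at Adam and Adamts proteases, with 11 near Adam12 and 5 near Adamts2, and 13.6% (38 of 280) at collagens, with 7 near Col4a1, 4 near Col6a3 and 4 near Col19a1. Secreted immune signals had similar shares, 16.0% (15 of 94) at interleukins and their receptors, with 4 near Il1r1 and 3 near Il33, and 15.2% (15 of 99) at chemokines and theirs, with 3 near Cxcl12 and 3 near Cxcr4. Laminins and integrins had 12.8% (23 of 179) and Fox factors 13.2% (27 of 204) with 7 near Foxo1 and 6 near Foxl1. Ligands and receptors of the TGF-beta family had 11.6% (29 of 250), 12 of them near the activin receptor Acvr2a. In 1 family all peaks were gained, the Nat8 acetyltransferases, with 3 of 3. Low shares were seen at T-box and Lim homeobox factors (3 of 81), olfactory receptors (2 of 56), Wnt ligands and Fzd receptors (4 of 74) and cadherins and protocadherins (20 of 305, with 39 lost). Glutamate and Gaba receptors had 10 gained but 29 lost of 82 tested peaks. Fos, Jun, Atf and Maf factors had 5 of 63, and the other families lay between 7.06% and 16.3%. Several of these counts rest on 1 gene, and peaks near 1 gene are not independent.

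Motif matches were searched on both strands of the central 300 bp of each peak. AP-1, TGANTCA, matched in 35.4% of gained peaks (1271; 95% Wilson interval 33.9 to 37.0), 26.0% of unaltered and 23.6% of lost peaks without a gene, and in 22.03% of all tested peaks. The share was higher in gained than in unaltered peaks in each of the 7 ranges of control level. It matched in 38.1% of gained and 19.3% of unaltered peaks at a control mean below 20, in 34.8% and 26.7% from 40 to 80 and in 35.8% and 27.5% from 320 to 640. The lowest range includes gained peaks that passed the filter on the mean only through their Taf4a sKO values, so its difference carries no weight. Gained peaks with a match had a median ratio of 1.25 and those without of 1.24. The E-box CAGCTG, a core bound by myogenic factors such as MYOD, went the other way, with 23.2% of gained, 31.7% of unaltered and 43.2% of lost peaks. A motif of CTCF, which anchors chromatin loops, was nearly absent, with 16 gained peaks (0.446%) against 6.74% of unaltered and 2.14% of lost peaks. TEAD, CATTCC, matched in 23.98%, 21.002% and 19.4% of gained, unaltered and lost peaks and STAT, TTCNNNGAA, in 12.4%, 9.60% and 9.35%. The homeobox core TAATTA (5.69%, 6.99% and 10.6%) and RUNX, TGTGGT (21.8%, 22.7% and 26.4%), were lowest in the gained set. For RUNX the gained and unaltered shares were close, and their order turned in the central 150 bp (11.96% and 11.88%). The GC-rich Sp/Klf core GGGCGG matched in 6.72% of gained and 9.52% of unaltered peaks, and NF-Y, CCAAT, in 34.3%, 33.4% and 36.6% of gained, unaltered and lost peaks. Over the whole peak the order of gained and unaltered turned for TEAD (33.9% and 34.6%) and NF-Y (48.0% and 51.0%). These intervals cover counting error only. A match describes letters in the window and does not show that a factor was bound.

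**Figure D5:**
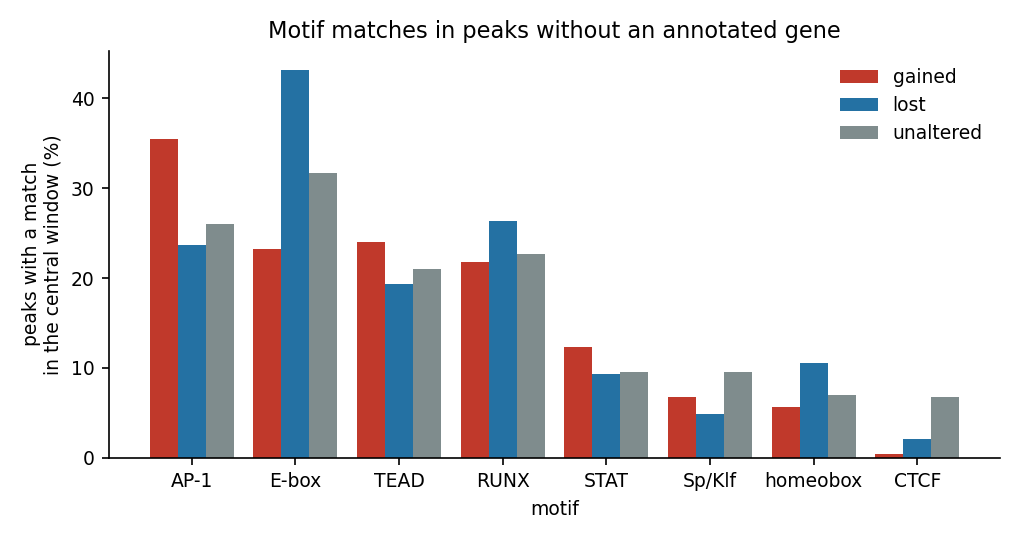
Percentage of gained, lost and unaltered peaks without an annotated gene with a match to each of 8 motifs in the central 300 bp. AP-1 matches are most frequent in gained peaks (35.4%), E-box matches in lost peaks (43.2%) and CTCF matches in unaltered peaks (6.74%).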

How the data were processed

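ATAC-seq of 3 control and 3 Taf4a sKO MuSC libraries was analysed. The authors trimmed reads with Trimmomatic 0.39, aligned them to mm10 with STAR 2.7.11b, filtered out duplicates (Picard 3.1.1) and reads of spliced, multi-mapping, ribosomal or mitochondrial origin, ran MACS per library with no input, merged the peaks and counted reads with featureCounts. Whether positions were offset for Tn5 is not given in the sources used here. The deposited values are scores, read counts that the authors normalized for sequencing depth and rounded to whole numbers, here called normalized counts. Multi-mapping reads were removed, so repeats are under-represented. The other deposited column used, the distance to the annotated gene, is empty for peaks without a gene.

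Because the values are not raw counts, limma 3.58.1 (R 4.3.3, trend and robust) was fitted to log2(value + 1) for the 75384 tested peaks, p-values were adjusted by Benjamini and Hochberg's method over all of them, and 0.05 was the threshold. The methods call the libraries biological replicates but the labels do not tie them to mice, so p-values measure the spread between these libraries only. Fold changes on this scale understate those of low peaks. The fit was checked on simulated data. Everything else was computed with Python 3.11.15. Features came from GENCODE release M21 and sequence from RefSeq's GRCm38.p6. It was not settled whether the table counts peak starts from 0 or 1, so a start can be 1 base off. No per-sample column was left unused. Genes named are those overlapping or flanking the 10 densest clusters, the 10 coding genes with most gained peaks, the targeted and Cre loci, marker genes and fixed families, plus peaks at the extremes of the levels and at the threshold. Others are said to be chosen later, and 1 of those clusters and 1 of those genes are not reported here. The members and lists were chosen with earlier results of these data known. With 3 libraries per genotype precision is limited, and exact permutation tests of 1 value cannot go below 0.1, so none were run. Alternatives covered thresholds, scaling, pseudocount, annotation, distances, motif windows and each library left out.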

Additional observations from a re-analysis of the deposited data

How the results depend on the processing

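At a log2 threshold of 1.5 there were 746 gained peaks (1.86% of tested), with 25.1% within 50 kb of another, 2 dense clusters and a median control mean of 37.7. At a 1.5-fold threshold there were 9670 (24.1%), with 71.2%, 377 and 98.7. A mean above 50 gave a share of 8.53%, 46.4% within 50 kb and a control median of 89. With 10 added to each mean the share was 6.75%, with 44.9%, 24 clusters and 82.2. Median-of-ratios scaling gave 6.63%, 42.8% and 19 clusters, equal totals 6.04%, 41.4% and 17, and quantile normalization 7.56%, 43.4% and 25 with a control median of 43.7. Peaks with no annotated start within 10000 bp gave 9.41% and 46.6%. Joining adjacent gained peaks gave 47.0% within 50 kb. Distances of 20 and 100 kb in place of 50 kb gave 35.1% and 62.9%, with 6 and 90 clusters. Per kb of peak the control median was 148. AP-1 matches were in 23.5% of gained and 16.5% of unaltered peaks in the central 150 bp. Over the whole peak they were in 44.9% and 37.3%. Peaks with a gene within 10 kb of a gained peak were also read under other scalings, an alternative chosen after seeing the data. Of them, 55.7% were higher by limma under equal totals and 53.7% after quantile normalization. Over all peaks with a gene 18.9% and 19.8% were higher under these scalings. The share lower within 10 kb rose from 4.60% as deposited to 9.28% under equal totals and 10.02% after quantile normalization.

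With each library left out in turn, the number of gained peaks ranged from 3138 to 4934, their share from 7.82% to 12.3%, those within 50 kb of another from 45.9% to 56.4%, dense clusters from 30 to 94, the control median from 62.5 to 69, AP-1 matches from 33.4% to 39.1%, flanking promoters that were higher from 3 to 12, and peaks with a gene within 10 kb that were higher from 50.3% to 65.2%. The highest counts came without control library 3. At single promoters 9 calls were lost under an alternative, and no direction reversed among the values recomputed. Libraries sharing a number did not deviate together (correlations of 0.11, -0.12 and -0.03). By limma 21102 peaks were higher and 10476 lower as deposited, 19090 and 16943 under median-of-ratios scaling, 17664 and 19464 under equal totals and 18697 and 18894 after quantile normalization. A replicate block gave 21944 higher peaks and 6 higher flanking promoters. The table's rounded values limit precision at peaks of low signal, and no depth of the raw reads was used here.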
